A study of Mus musculus with 4 samples.

Results

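Treatment with 5-AZA was followed by the appearance of mRNA from 112 genes that were near silent before it and whose GO annotation named none of the leading programs of these cells, muscle, interferon and immune response, germ cells, lipid and collagen. The group was chosen from the measured values themselves. The deposited transcripts were summed per gene, and a gene was kept if it lay below 0.1 FPKM in both untreated samples and above 1 FPKM in both 5-AZA samples. FPKM is the number of sequenced fragments scaled to transcript length and to the size of the library. Of 21878 genes, 237 met these limits (1.08%). The words muscle, sarco, myo, Z disc, interferon, virus, immune, meio, synapton, germ, sperm, lipid, fat, lipo and collagen, matched anywhere in the GO text, then removed 125 of them. The 112 that remained were 0.667% of the 16793 genes that pass the words. Since the choice used every sample of the comparison, the values below are a description and carry no test.

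C3H10T1/2 is a multipotent mesenchymal cell line from C3H mouse embryos. 5-AZA, or 5-azacytidine, is an analogue of cytidine that blocks DNA methyltransferases. There were 2 untreated samples (replicates 1 and 2) and 2 treated with 5-AZA at 20 μM (replicates 101 and 102). For the latter the labels list 72 hours of exposure and 21 days in fresh medium, while how long the untreated cells were cultured is not given. All 4 samples were this cell line, and neither a genetic change nor a vehicle is listed. The study calls the samples of a group biological repeats. The standard error given below for Krt8 comes from a limma fit, which combines the spread between these samples with that of other genes. Its text also describes picking clones of myotube-like cells, and whether the sequenced cells were picked in this way is not stated.

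DNA methylation at cytosines followed by guanine (CpG) helps to keep many tissue-restricted genes silent, above all in the germline, on the X chromosome and in imprinted regions. Inhibitors of DNA methyltransferases are known for waking such genes in cultured cells. They also turn C3H10T1/2 cells into muscle, fat and cartilage cells.

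FPKM summed over all genes lay between 328410 and 361664 in the 4 samples. Read counts were not used here, so the depth behind a single value is unknown. Of 10 mesenchymal markers 8 lay above 1 FPKM in both untreated and 9 in both 5-AZA samples, among them Vim and Pdgfra. Their sum was 7690 and 7760 FPKM before and 4450 and 4240 FPKM after 5-AZA. Most of it came from S100a4 (5027 and 5002 before, 2758 and 2355 after) and Vim (2268 and 2406 before, 1178 and 1380 after). Pdgfra went from 28.9 and 25.5 to 44.7 and 46.1 FPKM. Of 9 mesenchymal markers tested limma called 1 higher (Thy1) and 0 lower, with a median log2 difference of 0.3. Of 20 skeletal muscle markers 19 had values, and limma called all 17 tested higher. Myf5 and Myf6, listed at 0 in all samples, were not tested. Myod1, Myh1 and Neb, near 0 before, entered the test only through their 5-AZA values. Ckm belongs to the group chosen on these values. The count was therefore partly fixed in advance, and nothing is read from it. The 19 markers with values, Ckm among them, summed to 2.07 and 2.16 FPKM before and 1190 and 1770 FPKM after 5-AZA. RNA of a mixed culture was measured, in which more cells of a type and more RNA per cell cannot be told apart.

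The group was defined by near absence rather than by high levels afterwards. In the untreated samples 25 of the 112 genes were listed at 0 in both, and 42 lay below 0.01 FPKM in both. After 5-AZA the mean of the samples ranged from 1.04 FPKM (Icam2) to 54.4 FPKM (Ckm), with a median of 2.3. The median of the 10831 genes that lay above 1 FPKM in both 5-AZA samples was 9.38 FPKM. Thus 51 members were above 2 FPKM in both 5-AZA samples, 16 above 5 and 7 above 10. The plot of the 30 highest members shows how far apart both groups of samples were.

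**Figure D1:**
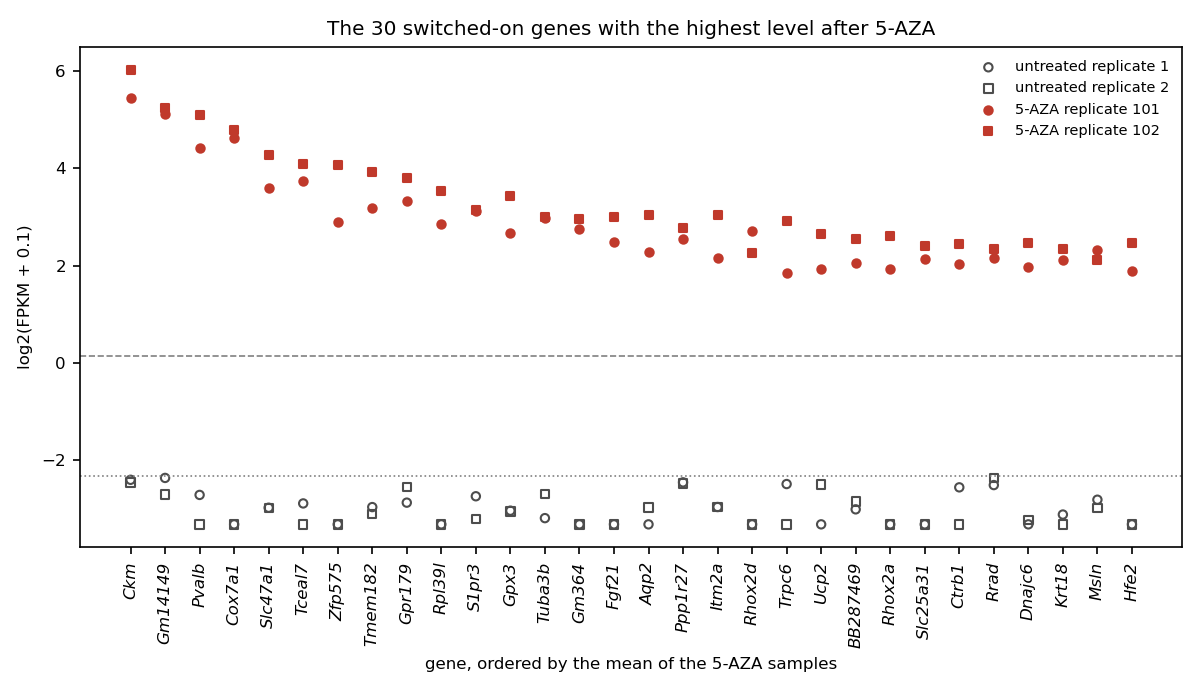
Level of the 30 switched-on genes with the highest mean after 5-AZA, as log2(FPKM + 0.1), in each untreated (open) and 5-AZA (filled) sample. Dotted and dashed lines mark the limits of 0.1 and 1 FPKM, and the groups do not overlap because the limits chose them. Ckm stands highest at 43.6 and 65.2 FPKM.

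On the scale of log2(FPKM + 0.1), which understates the change of low genes, the difference between groups ran from 2.95 (Inmt) to 8.17 (Ckm), with a median of 4.33. Over all 13199 genes with a mean of at least 0.1 FPKM the median was 0.05. A limma fit over those genes called 1724 higher after 5-AZA (13.1%) and 174 lower at an adjusted p below 0.05 and over 2-fold. All 112 members were among the calls, and since they were chosen on the same values nothing is read from this. Quantile normalization turned the split of calls into 1041 higher and 886 lower, and centring on each sample median into 1602 and 252.

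The same limits set the other way found 1 gene. It was the orphan receptor Gpr149, which went from 1.36 and 1.04 FPKM in the untreated samples to 0 and 0.0408 FPKM after 5-AZA. Of the 9350 genes below 0.1 FPKM in both untreated samples 7467 passed the words, and the members were 1.5% of these. Members just inside the upper limit were Hspb7 (1.00 and 1.44 FPKM after 5-AZA), Nnat (1.00 and 1.12) and Klrb1b (1.54 and 1.01). Just outside it lay Pkhd1 (0.996 and 1.39), Arhgap30 (0.984 and 1.19) and Nptx1 (1.24 and 0.982). At the lower limit Fam83a (0.0975 FPKM in untreated replicate 1), Emcn (0.0953) and Gm14149 (0.0938) were kept, while 9330159F19Rik (0.1005), Aldh1l1 (0.101) and Lgals7 (0.102) were not.

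Most members lay at similar levels in both 5-AZA samples, which the choice favoured since both had to exceed 1 FPKM. The replicates differed by less than 1.5-fold for 77 members and by more than 2-fold for 6, Zfp575, Trpc6, Klhl30, Rhox2f, Smim20 and 4930550L24Rik, all higher in replicate 102. Replicate 102 was the higher one for 82 of 112 members (73.2%), with a median ratio of 1.2 to replicate 101. Among all genes above 1 FPKM in both 5-AZA samples the share was 76.8% and the ratio 1.11. For the 125 switched-on genes that the words removed, 105 were higher in replicate 102, with a median ratio of 1.33. The members therefore leaned to replicate 102 about as often as expressed genes in general did.

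**Figure D2:**
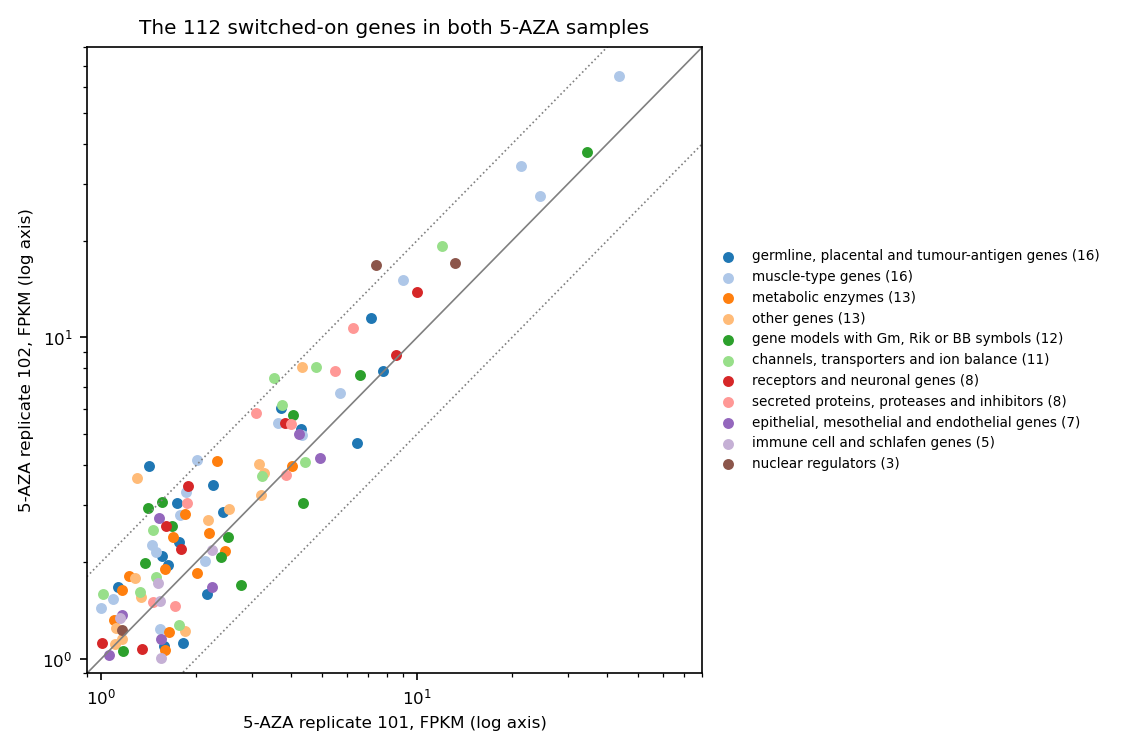
FPKM of each of the 112 switched-on genes in 5-AZA replicate 101 (x, log axis) and replicate 102 (y, log axis), coloured by group, with the number of genes per group. The solid line marks equal levels and the dotted lines a 2-fold difference, which 6 genes exceed, all on the side of replicate 102.

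The members were sorted by known function after their values were seen, and the words had not removed everything that belongs to muscle. There were 16 muscle-type genes, whose GO text held none of the words. Ckm, the muscle creatine kinase that buffers ATP, lay at 0.0888 and 0.0820 FPKM in the untreated samples and at 43.6 and 65.2 FPKM after 5-AZA. Pvalb, the calcium buffer of fast fibres and of some neurons, went from 0.0521 and 0 to 21.3 and 34.1 FPKM. Cox7a1, the heart and muscle form of a cytochrome c oxidase subunit, was listed at 0 in both untreated samples and at 24.6 and 27.5 FPKM after 5-AZA. All 3 were among the 4 highest members.

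The rest of the muscle-type genes were lower. Tmem182, a membrane protein of striated muscle, went from 0.0279 and 0.0157 to 9.01 and 15.1 FPKM. The calcium channel inhibitor Rrad held 4.33 and 4.96 FPKM and Ppp1r27, a regulatory subunit of protein phosphatase 1, 5.72 and 6.72 FPKM after 5-AZA. Hfe2, now named Hjv, which encodes the BMP co-receptor hemojuvelin of liver and skeletal muscle, was at 3.62 and 5.39 FPKM. The M-band protein Myom3 (1.44 and 2.26), M-cadherin Cdh15 (1.49 and 2.14) and the titin-associated ubiquitin ligase Trim55 (2.13 and 2.01) were listed at 0 in at least 1 untreated sample. Klhl30, Klhl31, Sh3bgr, Dusp27, Adprhl1 and Hspb7, between 1.00 and 4.15 FPKM, completed the group. Of the 16 genes 14 were higher in replicate 102, at a median ratio of 1.46, against 1.2 over all members. The sum of the muscle markers leaned the same way, and its part in the muscle-type values was not tested.

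The promoter of Ckm is shown because it holds the E-box CAGCTG, a core that muscle bHLH factors such as MyoD can bind. The 250 bases before its start (RefSeq, GRCm38.p6) are given with the E-box in capitals.
Ckm chr7:19410844-19411093 (+ strand): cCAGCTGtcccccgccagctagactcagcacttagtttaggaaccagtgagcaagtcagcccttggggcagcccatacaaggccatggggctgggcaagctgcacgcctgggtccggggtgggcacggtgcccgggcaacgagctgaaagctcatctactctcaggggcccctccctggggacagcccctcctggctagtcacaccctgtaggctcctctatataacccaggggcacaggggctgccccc
The window ends at the listed start of transcription. Windows from 250 bases before to 50 after the start were listed for 11 of the 16 muscle-type genes, too few for a comparison. CAGCTG, which reads the same on both strands, occurred in those of Ckm, Dusp27, Ppp1r27 and Tmem182. It was also in 2 of the 5 windows of immune and schlafen members and in 2 of the 8 of secreted proteins, and 15.1% of all 17268 windows held it. A match is a description of the letters and not a binding site.

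Genes known mainly from germ cells, the placenta or tumours formed a group of the same size. The 16 members lay between 1.09 and 11.5 FPKM after 5-AZA, and none was above 0.0541 FPKM in an untreated sample. Rpl39l, a testis paralog of the ribosomal protein gene Rpl39, was listed at 0 in both untreated samples and reached 7.16 and 11.5 FPKM. Tuba3b, an alpha-tubulin of the testis, went from 0.00927 and 0.0541 to 7.80 and 7.85 FPKM, and its close relative Tuba3a stood at 2.25 and 3.47 FPKM. How fragments were split between Tuba3a and Tuba3b, or between Rpl39l and Rpl39, is uncertain because the copies are alike. Slc25a31, the ADP/ATP carrier of male germ cell mitochondria, was at 0 and then at 4.29 and 5.17 FPKM. It was the single member on the list of 20 germline genes. Of these limma called all 17 tested genes higher, against 13.1% of all genes tested. Mael, Rnf212 and Majin lay below the mean of 0.1 FPKM needed for the test. Genes near 0 before, such as Dazl and Sycp3, reached that mean only through their 5-AZA values. The count was therefore largely fixed in advance, and nothing is read from it. The 10 trophoblast markers summed to 4.13 and 6.15 FPKM before and 6.74 and 8.27 FPKM after 5-AZA, and Tpbpa, Prl3b1, Prl3d1 and Gcm1 were listed at 0 throughout. Of 2 trophoblast markers tested limma called 1 higher, Plac1, at 2.00 and 1.24 FPKM before and 3.29 and 4.55 FPKM after.

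The reproductive homeobox (Rhox) cluster of the X chromosome gave 5 of these members. Rhox genes encode transcription factors of the gonads and placenta. All 8 Rhox2 copies were listed at 0 in both untreated samples, and together they summed to 17.7 and 20.1 FPKM after 5-AZA. Rhox2d held 6.45 and 4.68 FPKM, Rhox2a 3.71 and 6.02, Rhox2b 1.74 and 3.04 and Rhox2f 1.42 and 3.98. The copies disagreed about which replicate was higher, whereas their sum differed little between replicates. Rhox2c (1.19 and 0.786) and Rhox2h (2.75 and 0.445) missed the limit in 1 replicate. The level of a single Rhox2 copy is therefore uncertain, while the sum does not depend on how fragments were split among the copies.

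The starts of the Rhox2 copies show how alike they are. The 250 bases before the start of Rhox2a and of Rhox2d, both members, and of Rhox2c, which missed the limit, are given with every CpG in capitals (RefSeq, GRCm38.p6).
Rhox2a chrX:37244742-37244991 (+ strand): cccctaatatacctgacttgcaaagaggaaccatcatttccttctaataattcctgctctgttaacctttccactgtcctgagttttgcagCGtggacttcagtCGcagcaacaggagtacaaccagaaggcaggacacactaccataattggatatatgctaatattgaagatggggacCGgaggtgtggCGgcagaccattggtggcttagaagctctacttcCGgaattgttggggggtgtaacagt
Rhox2c chrX:37453409-37453658 (+ strand): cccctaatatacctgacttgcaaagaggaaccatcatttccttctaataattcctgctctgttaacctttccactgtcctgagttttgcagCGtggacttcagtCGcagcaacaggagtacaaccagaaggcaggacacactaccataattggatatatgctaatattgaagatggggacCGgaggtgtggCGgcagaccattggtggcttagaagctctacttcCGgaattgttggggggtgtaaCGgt
Rhox2d chrX:37493160-37493409 (+ strand): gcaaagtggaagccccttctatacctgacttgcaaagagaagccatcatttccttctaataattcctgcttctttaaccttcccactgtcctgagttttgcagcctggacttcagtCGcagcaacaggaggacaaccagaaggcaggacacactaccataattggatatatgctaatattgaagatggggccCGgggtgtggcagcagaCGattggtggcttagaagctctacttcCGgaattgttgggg
Rhox2a and Rhox2c were identical at 249 of 250 bases, and Rhox2a and Rhox2d at 227 of 263 aligned positions. Across the 7 Rhox2 copies with a listed start the identity ran from 71.3% to 99.6%. The Rhox2 windows shown held 4 to 6 CpG each.

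Rhox1 was listed at 0 in the untreated samples and at 1.13 and 1.67 FPKM after 5-AZA, nearly all of it on predicted rather than curated transcripts. The 8 Rhox4 copies summed to 2.06 and 1.58 FPKM, and the 7 Rhox3 copies to 0.158 and 0.0511 FPKM, from 0 in both untreated samples. Rhox5 was the highest gene of the cluster, at 0.286 and 0.440 FPKM before and 39.7 and 50.007 FPKM after 5-AZA, and it was not a member because it exceeded the lower limit and its GO text held one of the words. Of 33 Rhox genes 32 were silent in the untreated samples, 5 met both limits and 5 were listed at 0 in all samples.

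**Figure D3:**
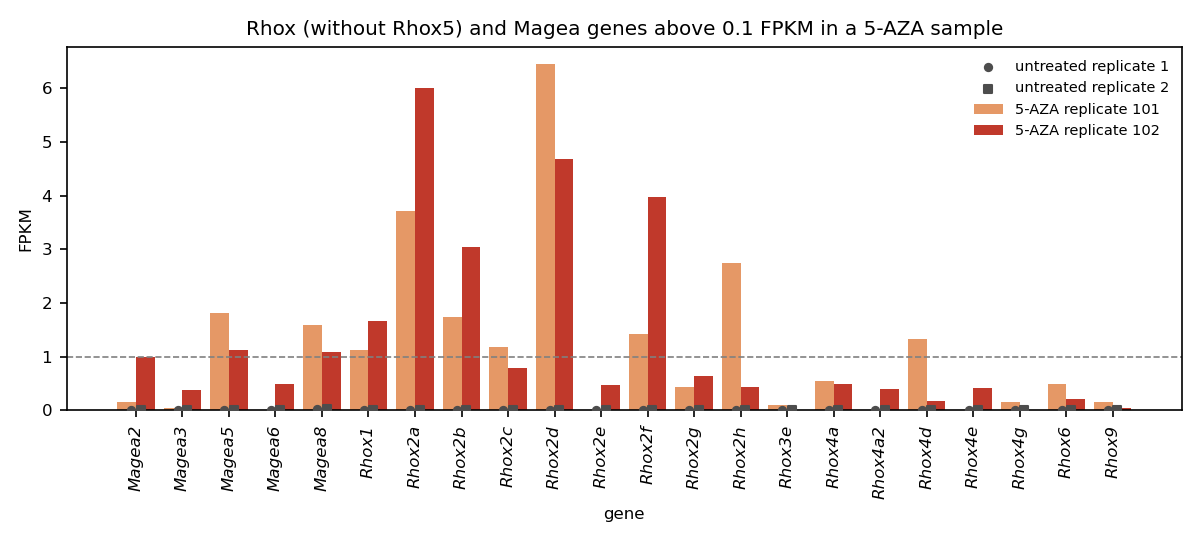
FPKM of the Rhox genes (without Rhox5) and Magea genes above 0.1 FPKM in at least 1 5-AZA sample, as bars for 5-AZA replicates 101 and 102 and as points for the untreated samples, which lie at or near 0. The dashed line marks 1 FPKM. Copies of Rhox2 differ between replicates in both directions, while their sums are 17.7 and 20.1 FPKM.

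The Magea genes, melanoma antigen genes of the X chromosome expressed in the testis and in tumours, gave 2 members. Magea5 held 1.81 and 1.12 FPKM and Magea8 1.58 and 1.09 FPKM after 5-AZA, from at most 0.0209 FPKM. All 8 Magea genes were silent in the untreated samples, where they summed to 0.0209 and 0.0202 FPKM, and they summed to 3.59 and 4.12 FPKM after 5-AZA. After 5-AZA 3 of the 8 lay above 0.1 FPKM in both samples, and Magea1 and Magea4 stayed at or near 0. Their upstream sequences, shown with CpG in capitals, differed more than those of the Rhox2 copies.
Magea5 chrX:155061554-155061803 (- strand): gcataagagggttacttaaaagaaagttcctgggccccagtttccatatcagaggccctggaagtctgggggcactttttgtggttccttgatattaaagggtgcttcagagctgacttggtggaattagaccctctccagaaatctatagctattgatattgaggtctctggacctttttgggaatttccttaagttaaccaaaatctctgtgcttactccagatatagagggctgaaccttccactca
Magea8 chrX:154995851-154996100 (- strand): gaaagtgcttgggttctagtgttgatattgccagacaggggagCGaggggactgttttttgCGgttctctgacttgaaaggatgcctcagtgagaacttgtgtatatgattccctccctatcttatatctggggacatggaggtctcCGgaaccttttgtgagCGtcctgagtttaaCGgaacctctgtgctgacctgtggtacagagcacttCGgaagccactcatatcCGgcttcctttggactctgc
The window of Magea5 held no CpG and that of Magea8 held 7, and the aligned windows were identical at 159 of 282 positions. The curated transcripts carried 1.28% of the Magea5 level and 27.7% of the Magea8 level. Magea5 and Magea8 lie 2 genes apart.

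The remaining germline and placental members were single genes. Trap1a, the gene of the tumour rejection antigen P1A, was listed at 0 in both untreated samples and at 1.56 and 2.08 FPKM after 5-AZA. Pet2 (named Dcaf8l in RefSeq, 2.42 and 2.85) and Tex13 (named Tex13b, 1.76 and 2.31) are X-linked as well. The placental surface protein gene Plet1 held 2.17 and 1.59 FPKM. Hist1h2aa, a testis histone H2A gene on chromosome 13, reached 1.63 and 1.95 FPKM, and its neighbour Hist1h2ba, which the words had removed, 4.49 and 1.02 FPKM. Both histone genes were listed in the untreated samples at values too small to measure.

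The members sorted as nuclear regulators were 3, and the Rhox genes were not sorted among them. Tceal7, of the family related to transcription elongation factor S-II, went from 0.0348 and 0 to 13.2 and 17.0 FPKM. Zfp575, a zinc finger gene, went from a trace to 7.39 and 16.8 FPKM, and so the replicates differed more than 2-fold. Hic1, a transcriptional repressor first described for its methylated promoter in cancers, was at 0.0519 and 0 and then at 1.17 and 1.23 FPKM. The GO text of 2 members, Tceal7 and Hic1, held transcription factor terms (1.79%), against 3.83% of the other silent genes that passed the words. That of Zfp575 and of the Rhox members held none of these terms. The shares therefore describe the annotation, and nothing is read from them about how many members are transcription factors.

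The bases before the first listed start of Hic1 are printed as an example of a CpG-dense window, again with CpG in capitals.
Hic1 chr11:75170256-75170505 (- strand): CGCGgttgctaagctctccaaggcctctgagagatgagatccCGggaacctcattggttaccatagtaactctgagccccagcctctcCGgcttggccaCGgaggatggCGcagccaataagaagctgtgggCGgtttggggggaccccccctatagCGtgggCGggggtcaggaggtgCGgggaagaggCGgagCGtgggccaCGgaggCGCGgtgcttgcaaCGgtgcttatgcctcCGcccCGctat
It held 18 CpG in 250 bases. Hic1 has 2 listed starts, and its curated transcripts carried 33.1% of its level.

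Channels, transporters and enzymes of ion balance made up 11 members, which lay between 1.01 and 19.3 FPKM after 5-AZA. Slc47a1, which extrudes organic cations in kidney and liver, was the highest at 11.97 and 19.3 FPKM from 0.0267 and 0.0261. Aqp2, the vasopressin-regulated water channel of the kidney, went from 0 and 0.0271 to 4.78 and 8.08 FPKM. The glycerol channel Aqp7 reached 3.23 and 3.71 FPKM and the urea transporter Slc14a1 4.41 and 4.09 FPKM. The best known sites of these genes are kidney, liver, fat and red blood cells. The 15 adipocyte markers summed to 103 and 93.1 FPKM before and 1340 and 1850 FPKM after 5-AZA. Of these markers limma called 12 of 14 tested higher, against 13.1% of all genes tested. Cidec, Acvr1c and Adrb3, near 0 before, entered the test only through their 5-AZA values. The part of the adipocyte markers in the values of Aqp7 and of Fgf21 was not tested.

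Trpc6, a cation channel opened by diacylglycerol, held 0.0777 FPKM and a trace in the untreated samples and 3.52 and 7.46 FPKM after 5-AZA. Ucp2, a carrier of the inner mitochondrial membrane, went from 0 and 0.0767 to 3.74 and 6.14 FPKM. The lactate exporter Slc16a3 (1.77 and 1.28), the amino acid transporter Slc36a2 (1.49 and 1.80), Tmem37 (1.46 and 2.52) and the carbonic anhydrases Car12 (1.33 and 1.61) and Car14 (1.01 and 1.59) were lower. The GO text of 10 members held membrane transport terms (8.93%, against 4.68% of the other silent genes). That of 6 members held channel terms (5.36% against 3.39%), among them the channel inhibitor Rrad and the urea transporter Slc14a1.

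The GO text of 18 members held the word extracellular, 16.1% against 10.3% of the other silent genes. Not all of these encode secreted proteins, as the water channel Aqp2 was among them. Gpx3, the plasma glutathione peroxidase, went from 0.0215 and 0.0202 to 6.25 and 10.7 FPKM. Fgf21, a metabolic hormone of liver and fat, was listed at 0 in both untreated samples and at 5.48 and 7.86 FPKM after 5-AZA. Pmch, which encodes the hypothalamic peptide melanin-concentrating hormone, was also at 0 and reached 3.09 and 5.81 FPKM.

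Other members sorted as secreted proteins, proteases and inhibitors are known from unrelated tissues. Ctrb1, a pancreatic chymotrypsinogen, went from 0.0695 and 0 to 3.999 and 5.37 FPKM. Bglap, the bone protein osteocalcin, was at 3.85 and 3.72 FPKM from a trace, and its close paralogs leave its own share uncertain. Kng2, a kininogen, held 1.87 and 3.06 FPKM. The protease inhibitor genes Serpinb9g (1.71 and 1.46) and R3hdml (1.46 and 1.4996) were near the median or below. Among GO themes, 2 members were ligands (1.79%, against 1.63% of the other silent genes) and 4 were proteases or their inhibitors (3.57% against 4.24%).

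The metabolic enzymes numbered 13 and lay between 1.07 and 4.11 FPKM. Cyp2c55, a cytochrome P450, gave nearly equal values in both 5-AZA samples, 4.01 and 3.98 FPKM, from 0.0173 and 0. Dio2, which converts thyroxine to the active thyroid hormone, went from 0 and 0.00484 to 2.47 and 2.17 FPKM. The retinaldehyde dehydrogenase Aldh1a3 held 2.01 and 1.85 FPKM and its relative Aldh1a7 1.84 and 2.82 FPKM. Of the members 7 were oxidoreductases by GO text, 6.25% against 2.07% of the other silent genes.

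Aldoc, the brain form of aldolase, was the highest enzyme in replicate 102 at 4.11 FPKM, with 2.33 in replicate 101. Gfpt2, the entry enzyme of hexosamine synthesis, was at 1.16 and 1.63 FPKM and Aox3, an aldehyde oxidase, at 1.63 and 1.21. Pcbd1, which recycles the cofactor tetrahydrobiopterin, was listed at 0 in both untreated samples and at 1.0996 and 1.32 FPKM after 5-AZA. B3galt2, Enpp5, Fam213a, Ggt7 and Inmt completed the group.

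Receptors and neuronal genes were 8 members. Gpr179, an orphan receptor of retinal bipolar cells, was the highest at 10.002 and 13.8 FPKM from 0.0363 and 0.0705. Its curated transcript carried 26.8% of that level. S1pr3, a receptor for sphingosine-1-phosphate, was almost equal in both 5-AZA samples at 8.57 and 8.78 FPKM, from 0.0493 and 0.00778. G protein-coupled receptors were 21% of the other silent genes and 3 of the 112 members (2.68%).

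The neuronal genes were low. Dnajc6, the brain auxilin that uncoats clathrin vesicles, reached 3.80 and 5.42 FPKM, the synaptic vesicle gene Syngr1 1.34 and 1.08 and the synaptic adhesion gene Clstn3 1.60 and 2.59. Nnat, an imprinted gene of the brain, was at 0.0112 and 0.0104 and then at 1.00 and 1.12 FPKM. Ctxn3 and Gprc5c held 1.78 to 3.45 FPKM. Of the 11 neuronal markers Snap25 and Elavl3 were listed at 0 in all samples, limma called 1 of 4 tested higher (Gap43), and the sum was 10.1 and 9.42 FPKM before and 10.2 and 10.7 FPKM after 5-AZA.

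Epithelial, mesothelial and endothelial genes gave 7 members. Krt18, a keratin of simple epithelia, went from 0.0150 and 0 to 4.22 and 4.99 FPKM. Its partner keratin Krt8, no member because it started at 0.395 and 0.379 FPKM, reached 15.3 and 19.4 FPKM, and limma gave a log2 difference of 5.15 with a standard error of 0.20 and an adjusted p of 8.11e-07. The 8 epithelial markers summed to 0.967 and 0.877 FPKM before and 20.0 and 25.6 FPKM after 5-AZA. Of 5 epithelial markers tested limma called 3 higher (Epcam, Krt8 and Krt18), and most of the summed level came from both keratins. Krt18 is a member chosen on these values, and Epcam entered the test only through its 5-AZA values. Nothing is therefore read from their calls. Epcam reached 0.207 and 0.301 FPKM, E-cadherin (Cdh1) held 0.4995 and 0.497 before and 0.157 and 0.367 after, and Esrp1 was listed at 0 throughout.

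Msln, the mesothelial surface protein mesothelin, stood at 4.93 and 4.21 FPKM from 0.0421 and 0.0265. The tight junction gene Cldn18 (1.55 and 1.15) and the laminin receptor Bcam (1.53 and 2.74) were lower. Emcn, an endothelial sialomucin, went from 0.0953 and 0.0447 to 2.24 and 1.67 FPKM, Icam2 from 0 and 0 to 1.06 and 1.02, and Ecscr from 0 and 0.0259 to 1.16 and 1.36. The 6 endothelial markers, Emcn among them, summed to 0.631 and 0.341 before and 4.03 and 3.45 FPKM after 5-AZA. The receptors Kdr and Tie1 were at 0 in all samples, and limma called 3 of 4 tested markers higher (Cdh5, Tek and Emcn). Emcn was chosen on these values, and Cdh5 entered the test only through its 5-AZA values. Nothing is therefore read from the calls of Emcn and Cdh5. Of these 7 members 3 were higher in replicate 102, with a median ratio of 0.966.

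Immune cell and schlafen genes were the remaining small group, with 5 members. Sp100, a protein of PML nuclear bodies, lay at 0.0241 and 0.0262 and then at 2.24 and 2.18 FPKM. Slfn2 (1.51 and 1.72) and Slfn5 (1.14 and 1.34) belong to the schlafen cluster of chromosome 11, in which Slfn8 also met the limits (1.12 and 1.02) and was removed by its GO words. The macrophage lectin Mgl2 held 1.53 and 1.51 FPKM and the natural killer receptor Klrb1b 1.54 and 1.01. The leukocyte marker Ptprc was at 0 and 0 before and at 0.0631 and 0 FPKM after 5-AZA, and Adgre1 and Cd3e were listed at 0 in every sample. The 8 immune cell markers summed to 3.57 and 4.09 before and 5.58 and 6.99 FPKM after, mostly Cd14 and Cd68, and limma called 1 of 2 tested higher (Cd68). Of 15 interferon response genes 13 had values, and limma called all 12 tested higher, against 13.1% of all genes tested. Rsad2, at 0 and 0.0221 FPKM before and 0.0993 and 0.221 FPKM after, lay below the mean needed for the test. Genes near 0 before, such as Oas2, entered the test only through their 5-AZA values. The 13 summed to 19.7 and 16.3 FPKM before and 345 and 320 FPKM after 5-AZA. Their part in the values of Sp100 and the schlafen genes, which interferon can induce, was not tested. The part of other cell types in the epithelial, endothelial and immune members was not tested.

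Gene models that the files list under Gm, Rik or BB symbols were 12 members. RefSeq names 2 of them, Gm6880 as Ctag2l1, an X-linked gene, and 1810041L15Rik as Shisal1. Gm14149 was the second highest of all members, at 0.0938 and 0.0531 FPKM before and 34.6 and 37.8 FPKM after 5-AZA. It rests on a predicted transcript alone, as do Gm6958, Gm40991 and Wdr49. Gm364, on the X chromosome, was listed at 0 in both untreated samples and at 6.60 and 7.65 FPKM after 5-AZA, and 4930550L24Rik, 3 genes away, at 0 and then at 1.41 and 2.95. The others lay between 1.06 and 5.71 FPKM.

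The last 13 members fell into no common function. Itm2a, a membrane protein gene on the X chromosome, was the highest, from 0.0281 and 0.0281 to 4.33 and 8.09 FPKM. Ppp1r1a, an inhibitor of protein phosphatase 1, reached 3.27 and 3.79 FPKM and Smim20 1.30 and 3.65 FPKM from 0 in both untreated samples. The others were Igsf23, Eva1b, Atp6ap1l, Palmd, Fam83a, Grtp1, Tusc5, Fam131a, Wdr49 and Trp53i11, between 1.101 and 4.03 FPKM. For 20 of the 112 members (17.9%) the GO text was missing or held root terms only, against 28.4% of the other silent genes, so the words could not have removed them.

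The values of many members rested on 1 transcript model. A single transcript was listed for 48 members, and in 68 the highest transcript carried more than 90% of the level. In 19 the curated transcripts carried less than 50%. With curated transcripts alone 98 genes met the limits and words.

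The members were spread over the genome with 2 chromosomes ahead. Of the 110 members with a chromosome in RefSeq, 15 lay on the X (13.6%), against 6.47% of the other silent genes and 4.71% of all genes that pass the words. Of the 15, 7 were Rhox and Magea genes, among them 4 close copies of Rhox2. Chromosome 11 held 17 members (15.5%), against 5.99% and 7.05%, among them Slc47a1, Gpr179, Gpx3, Hic1 and both schlafen genes. Chromosomes 5 and 14 held 1 member each and the Y none.

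**Figure D4:**
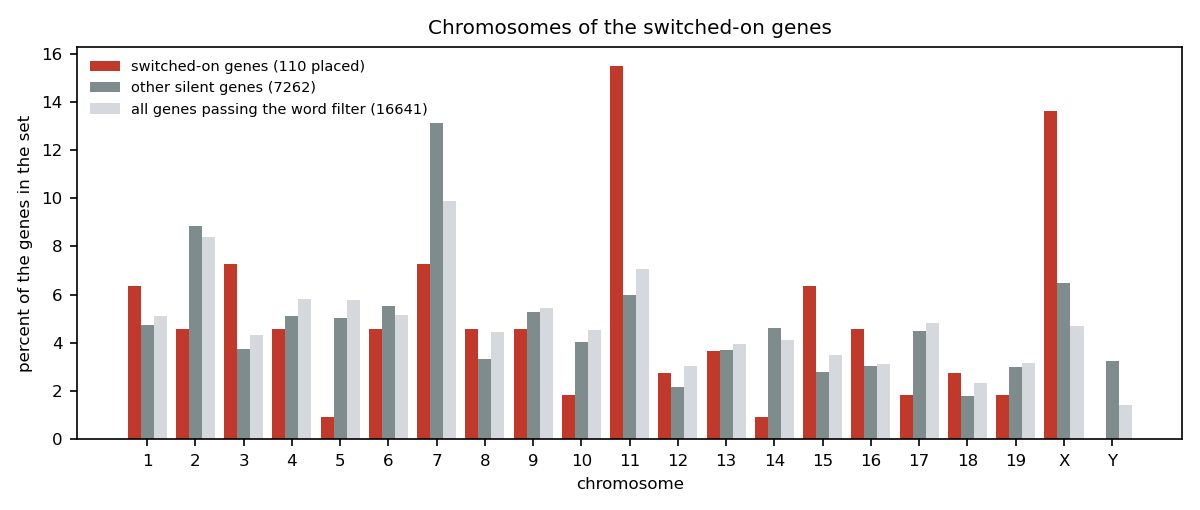
Percent of the switched-on genes (red), of the other genes silent in the untreated samples (dark grey) and of all genes passing the word filter (light grey) on each chromosome. Chromosome 11 (15.5%) and the X (13.6%) hold the most switched-on genes.

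Of the 109 members that could be placed in gene order, 10 had another member within 3 genes on either side. The pairs were Slfn5 with Slfn2, Grtp1 with Adprhl1, Rhox1 with Rhox2a, Gm364 with 4930550L24Rik and Magea8 with Magea5. Of the 618 other neighbours within 3 genes 51.3% lay above 1 FPKM in both untreated samples and 38.2% were silent there. Over all 21403 placed genes the shares were 47.4% and 42.1%. Of the 618 neighbours, from which members are left out, 4 met the limits but not the words. This was 0.647%, against 1.09% of all placed genes, members included. The 4 were Hist1h2ba, Nckap1l beside Ppp1r1a (2.63 and 3.47 FPKM after 5-AZA), Slfn8 and Syt13 beside Trp53i11 (3.39 and 4.23).

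Of 4295 circRNAs, which are measured as back-spliced reads scaled to all reads of the library (RPM), 4 came from members, and all 4 were listed at 0 in the untreated samples. The circRNA of Wdr49 held 0.0323 and 0.0852 RPM in 5-AZA replicates 101 and 102, that of Trpc6 0 and 0.106, that of Cyp2c55 0.0538 and 0, and that of Dnajc6 0.0215 and 0. The smallest value listed in any sample was 0.0213 to 0.0215 RPM. These values lay near the lower end of what the data resolve.

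lncRNAs that start within 2000 bases of a member's start were listed on the same strand for 15 members (18 lncRNAs) and on the opposite strand for 22 members (61 lncRNAs). By the same limits 124 of all 131832 lncRNA transcripts were switched on (0.0941%). Among those near members these were NONMMUT040449.2 at Gm14149 (0.0940 and 0.0228 FPKM before, 32.7 and 40.6 after 5-AZA) and NONMMUT026962.2 at Gm6958 (6.16 and 4.43 after), both on the same strand. Whether they and the gene models share fragments was not tested. On the opposite strand 0 of 61 were switched on, and the lncRNA at Pmch, NONMMUT006725.2, stood at 2.50 and 2.96 FPKM before and 2.09 and 2.03 FPKM after 5-AZA.

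Promoter windows from 250 bases before to 50 after the start were listed for 86 of the 112 members (76.8%), which is below the 80% needed, so a comparison of CpG content over the whole group is void. For groups with enough windows the counts can be described. CpG-rich means here a ratio of observed to expected CpG of at least 0.6 with a GC content of at least 50%. Of 14 windows of the germline and placental group 3 were CpG-rich, those of Rpl39l, Slc25a31 and Tuba3b. Of 13 windows of members on the X none was CpG-rich, nor was any of the 8 windows of secreted proteins or of the 5 of immune and schlafen genes. On the X, Tex13 (ratio 0.730, GC 49.0%) and 4930550L24Rik (0.662, 43.7%) met the ratio but not the GC limit. Of 11 windows of metabolic enzymes 1 was CpG-rich. Of the genes above 1 FPKM in both untreated samples 74% had a CpG-rich window, whereas the other silent genes had windows for too few to compare.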

How the data were processed

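mRNA, lncRNA and circRNA were measured in 2 untreated and 2 5-AZA samples of C3H10T1/2 cells, from RNA depleted of ribosomal RNA in stranded libraries. The authors deposited FPKM values per mRNA and lncRNA transcript and RPM values per circRNA, with GO terms beside the mRNAs. The submitters' processing notes name Trimmomatic, HISAT2, Bowtie2 2.2.9 and eXpress 1.5.1 and list the build mm9. Yet 69.8% of 2459 circRNA host transcripts shared a start or end with a GRCm38.p6 gene, so the coordinates of the files were not used for sequences. Promoter windows, gene order and chromosomes came from RefSeq (GRCm38.p6), matched by gene ID or symbol. Promoters were matched for 86 of 112 genes. Read counts were not used here, so the precision is known only from the 2 samples per group.

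FPKM values were summed per gene, and the limits and words were applied with pandas 2.3.3 in Python 3.11.15. The genes, lists, GO themes and groups were chosen with earlier results of these data known. Genes printed with values are the 15 highest, those nearest the limits, members with a relative or neighbour among the members, members with a circRNA or on a marker list, and up to 4 per GO theme. Others were named after their values were seen. As background, log2(FPKM + 0.1) was fitted with limma 3.58.1 (lmFit, eBayes with trend) in R 4.3.3, over 13199 genes with a mean of at least 0.1 FPKM and with Benjamini-Hochberg adjustment. The fit was tested on simulated data. Windows were aligned with Biopython 1.88. Other limits, pseudocounts, scalings, transcript choices and the omission of each sample were tried as alternatives.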

Additional observations from a re-analysis of the deposited data

How the results depend on the processing

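The number of genes was set by the limits and words. It was 112 as reported, 206 with an upper limit of 0.5 FPKM, 51 with an upper limit of 2 FPKM and 237 without the words. Leaving out 1 sample gave 123 to 153 genes, and the other alternatives 78 to 159. The reverse count, 1 as reported, was 4 with a lower limit of 0.2 FPKM, 2 with an upper limit of 0.5, 0 with an upper limit of 2, 0 with curated transcripts alone and 1 to 5 without 1 sample. The limma calls, 1724 higher and 174 lower, became 875 and 86 with a pseudocount of 1, 845 and 122 over genes with a mean of at least 1 FPKM, 1041 and 886 after quantile normalization, 1179 and 83 without a filter on low values, and 733 to 1617 higher and 52 to 184 lower without 1 sample. Leaving out 5-AZA replicate 101 gave 925 and 52, and leaving out 5-AZA replicate 102 gave 733 and 70. A lone sample was then assumed to vary like the other group. The share of CpG-rich windows, 19.8% of 86, was 4.65% with a stricter definition, and is void as a comparison. The median log2 difference of the members, 4.33, was 1.66 with a pseudocount of 1 and 6.99 with 0.01. Of 672 alternative values for single members 0 were reversed and 224 moved by more than the spread between replicates, all of them under the other pseudocounts. The limits fixed the sign of every difference in advance. Leaving out 1 of 2 samples cannot shift a mean by more than that spread. Nothing is therefore read from the absence of reversals or of moves without 1 sample. The causes were not tested. No paired analysis was possible because the groups share no replicate number. With 2 samples per group and no read counts, values near 0 and near 1 FPKM are the least certain.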
